A study of Mus musculus with 10 samples.

Results

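Genes of fatty acid and triglyceride synthesis were followed in livers of female mice, 5 wild-type libraries (WT) and 5 libraries of mice with a whole-body knockout of Etnppl (KO), the gene of ethanolamine-phosphate phospho-lyase. The genes were 33 named enzymes and factors, taken by gene symbol from a deposited table of 47702 genes, and all 33 were found. They cover synthesis of fatty acids from acetyl-CoA (8 genes), chain elongation (7), desaturation (4), regulation (3), assembly of triglyceride (8) and activation of fatty acids to acyl-CoA (3). Both genotypes received a chow diet for 20 weeks, and the knockout was the sole stated difference between them. The sources used here do not give strain, age or feeding state at collection. They do not state whether each library came from 1 animal either, and the p-values therefore reflect spread among libraries that may be technical.

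Liver makes fatty acids from citrate that leaves the mitochondrion. ATP citrate lyase releases acetyl-CoA, acetyl-CoA carboxylase turns it into malonyl-CoA, and fatty acid synthase builds palmitate from both. Elongases of the endoplasmic reticulum lengthen the chain and desaturases place double bonds, while acyltransferases, lipins and diacylglycerol acyltransferases join acyl-CoA to glycerol phosphate to make triglyceride. Insulin acts on many of these genes through SREBP-1c, a product of Srebf1, and glucose acts through ChREBP, the product of Mlxipl. ETNPPL breaks down phosphoethanolamine, an intermediate in the making of phosphatidylethanolamine.

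Values were FPKM, fragments scaled by transcript length and by library total, so levels can be compared between genes on a per-length scale. Etnppl itself was measured at 60.27, 69.73, 108.39, 47.24 and 43.32 FPKM in WT 1 to WT 5 and at 26.43, 21.97, 18.88, 25.74 and 17.72 FPKM in KO 1 to KO 5. The groups did not overlap, and KO libraries averaged 33.7% of WT, so the transcript was reduced and not absent. Its log2 difference, KO minus WT, was -1.49 (SE 0.23, limma adjusted p = 0.005). The sources used here give no total reads per library. Estimated from whole-fragment steps in 333 low genes, relative depth ran from 0.901 in KO 1 to 1.11 in WT 3, with a mean of 1.05 in WT and 0.954 in KO (two-sided exact permutation test, p = 0.0556). Spearman correlations between libraries across genes lay between 0.974 and 0.988, and no libraries held identical values.

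Across the 33 genes, 3 were higher in KO and 0 were lower at an adjusted p under 0.05. The 3 were Elovl1 and Elovl6, which encode elongases, and Acaca, which encodes the cytosolic acetyl-CoA carboxylase. That is 9.09% of the 33, beside 8.54% of all 12247 genes tested (3.98% higher and 4.56% lower), a share near the background. The test was limma on log2(FPKM + 0.5) with Benjamini-Hochberg adjustment over all tested genes, and fold changes of low genes are understated on that scale. At an unadjusted p under 0.05, 7 of the 33 were higher and 3 lower, 30.3% in all, against 24.5% of all tested genes (11% higher and 13.6% lower). The median log2 difference was 0.07 over the 33 and -0.02 over all tested genes. Differences were above 0 for 19 of the genes and below 0 for 14. All 33 exceeded the mean of 0.5 FPKM needed for a test, a filter on the mean over both genotypes.

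**Figure D1:**
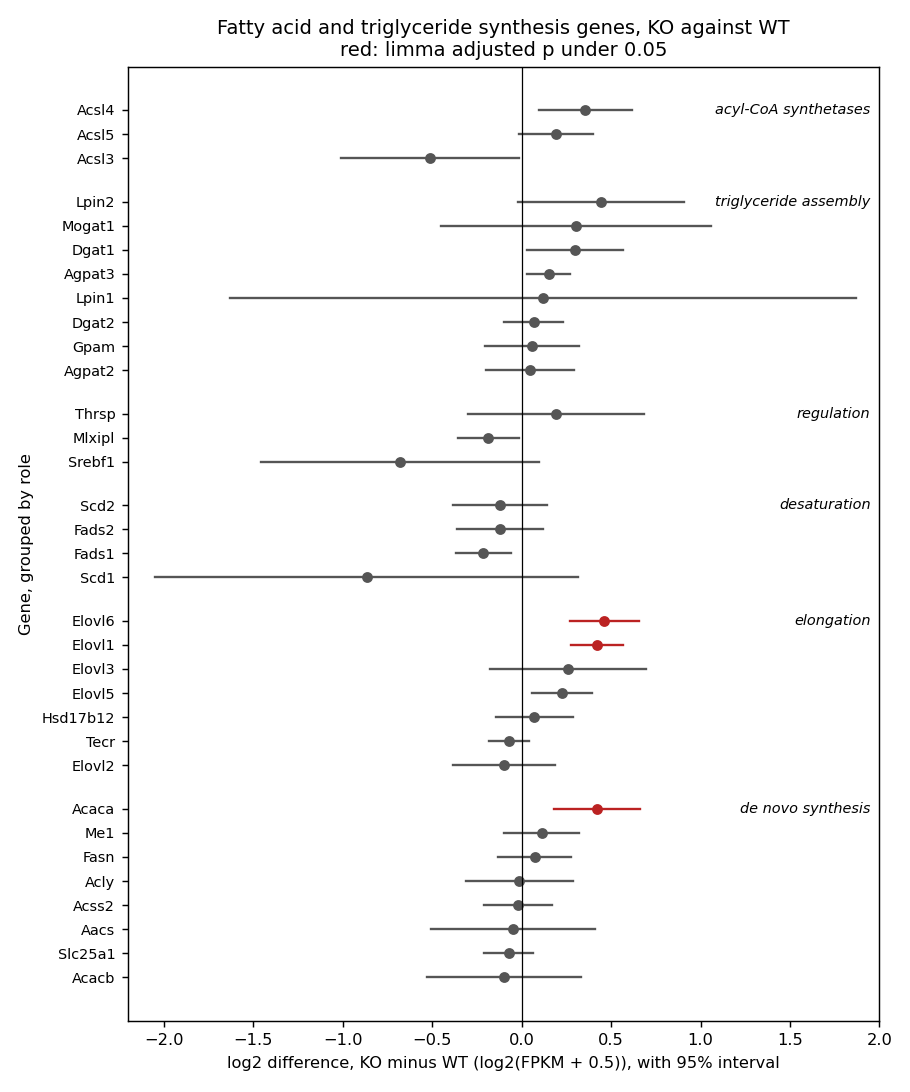
Log2 difference in FPKM, KO minus WT, for each of the 33 genes, grouped by role; points are limma estimates, bars are 95% confidence intervals and red marks genes with an adjusted p under 0.05. Elovl1, Elovl6 and Acaca are the called genes, and the intervals of Lpin1, Scd1 and Srebf1 are wide.

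Levels spanned a wide range. Elovl5, an elongase of polyunsaturated fatty acids, was the most abundant with a mean of 407 FPKM over the 10 libraries, and Scd2, a stearoyl-CoA desaturase that is prominent outside liver, the least with 0.576 FPKM. Fads2, a desaturase of polyunsaturated fatty acids, followed Elovl5 with 323 FPKM. The summed FPKM of the 33 genes ran from 2603 to 2800 in WT and from 2520 to 2827 in KO, so the totals overlapped. The 4 desaturases summed to between 516 and 703 FPKM in WT and between 427 and 494 FPKM in KO, without overlap. In WT and KO, Fads2 averaged 337 and 308 FPKM, Scd1 167 and 72.0 FPKM and Fads1 94.7 and 81.8 FPKM. The 8 genes of triglyceride assembly summed to between 653 and 788 FPKM in WT and between 754 and 864 FPKM in KO, with overlap. The 3 regulators summed to between 84.74 and 91.71 FPKM in WT and between 71.85 and 82.18 FPKM in KO, without overlap. Most of these sums came from Mlxipl, with means of 69.4 FPKM in WT and 60.6 FPKM in KO, whose own groups overlapped. Sums of the remaining roles overlapped. None of these sums was tested.

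**Figure D2:**
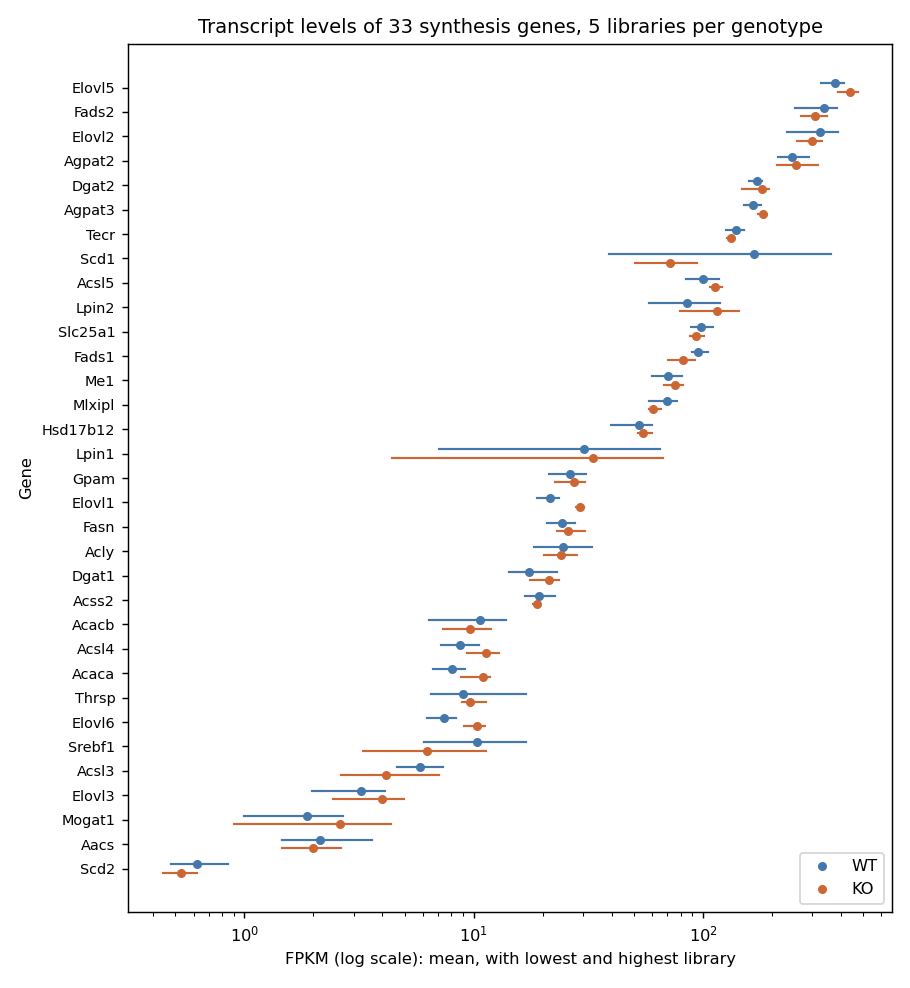
FPKM on a log axis for each of the 33 genes, ordered by level; points are means of the 5 libraries of a genotype and bars run from the lowest to the highest library. Means run from under 1 FPKM for Scd2 to 375 FPKM in WT and 439 FPKM in KO for Elovl5, and the bars are widest for Lpin1 in both genotypes and for Scd1 in WT.

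In de novo synthesis, 1 of 8 genes was higher in KO and 0 were lower, with a median log2 difference of -0.02. That is 12.5% called, beside 8.54% of all tested genes (3.98% higher and 4.56% lower). Acaca makes the malonyl-CoA used by fatty acid synthase and by the elongases. It was measured at 9.04, 6.87, 9.2, 8.54 and 6.65 FPKM in WT 1 to WT 5 and at 11.77, 11.78, 11.07, 8.84 and 11.2 FPKM in KO 1 to KO 5. Of the KO libraries, 4 lay above every WT library, and KO 4 lay below WT 1 and WT 3. The means were 8.06 ± 1.21 FPKM in WT and 10.9 ± 1.21 FPKM in KO (SD, n = 5 each), and KO exceeded WT by 0.42 on the log2 scale (SE 0.11, adjusted p = 0.0371). The call was lost when any one of WT 2, WT 4, WT 5, KO 1, KO 2, KO 3 or KO 5 was left out, with adjusted p up to 0.0842. With no filter on low genes the Acaca log2 difference was the same and its adjusted p was 0.0718.

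The enzymes on either side of Acaca gave small estimates. Fasn, the fatty acid synthase, ranged from 20.88 to 27.55 FPKM in WT and from 23.19 to 30.67 FPKM in KO. Its log2 difference was 0.07 with a 95% confidence interval from -0.13 to 0.28. Acly, the ATP citrate lyase, ranged from 18.27 to 32.84 FPKM in WT and from 20.21 to 28.31 FPKM in KO, and its difference was -0.01 (interval -0.31 to 0.29). Both groups overlapped for both genes. Acacb, the carboxylase isoform of the mitochondrial outer membrane whose malonyl-CoA restrains entry of fatty acids into the mitochondrion, had a mean of 10.6 FPKM in WT and 9.68 FPKM in KO, with a difference of -0.10 (interval -0.53 to 0.33). The remaining genes of this role did not pass the test either. They were Acss2, which makes acetyl-CoA from acetate, at -0.02, Aacs, which activates acetoacetate, at -0.05, Me1, the NADPH-forming malic enzyme, at 0.11, and Slc25a1, the mitochondrial citrate carrier, at -0.07 on the log2 scale.

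In elongation, 2 of 7 genes were higher in KO and 0 were lower, with a median log2 difference of 0.23. That is 28.6% called, beside 8.54% of all tested genes (3.98% higher and 4.56% lower), and the share of this role was not tested. The cycle has a condensing step, which the ELOVL enzymes carry out, then a reduction, a dehydration and a second reduction. Elovl1 lengthens saturated and monounsaturated acyl chains into the very long range found in sphingolipids. It was measured at 23.07, 22.37, 18.8, 20.09 and 23.65 FPKM in WT 1 to WT 5 and at 29.25, 28.69, 30.3, 27.89 and 28.81 FPKM in KO 1 to KO 5. Every KO library lay above every WT library. The means were 21.6 ± 2.07 FPKM in WT and 29.0 ± 0.883 FPKM in KO (SD, n = 5 each), and the log2 difference was 0.42 (SE 0.07, adjusted p = 0.0045), the smallest p among the 33 genes. Elovl1 stayed called whichever library was left out, with adjusted p at most 0.0136.

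Elovl6 lengthens palmitate to stearate and acts directly after fatty acid synthase. It was measured at 8.33, 6.28, 7.91, 7.68 and 6.85 FPKM in WT 1 to WT 5 and at 9.05, 11.22, 9.82, 11.07 and 10.78 FPKM in KO 1 to KO 5. The groups did not overlap, and the nearest libraries were WT 1 and KO 1. The means were 7.41 ± 0.831 FPKM in WT and 10.4 ± 0.925 FPKM in KO (SD, n = 5 each), with a log2 difference of 0.46 (SE 0.09, adjusted p = 0.0104). The call held whichever library was left out, with adjusted p at most 0.0301. Elovl1 and Elovl6 were the 2 of 33 genes whose groups did not overlap, while 8.87% of all tested genes had groups without overlap, 4.08% with KO higher and 4.78% with KO lower.

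Elovl6 lies on the same chromosome as the targeted gene. In mm10 it spans 129532355 to 129638495 on chromosome 3, plus strand, and Etnppl spans 130617448 to 130637521 on the same strand, a gap of 0.979 Mb. Of the 6 tested genes between them, Cfi, which encodes complement factor I, was lower in KO (log2 difference -0.40, adjusted p = 0.00267). Gar1, a small nucleolar ribonucleoprotein gene, at 0.34 (adjusted p = 0.058), and Pla2g12a, a secreted phospholipase gene, at 0.31 (adjusted p = 0.0974), did not pass. The part of this position in the Elovl6 difference was not tested. Elovl1 is on chromosome 4, from 118428093 to 118432953, and Acaca on chromosome 11, from 84129672 to 84401651, both on the plus strand.

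**Figure D3:**
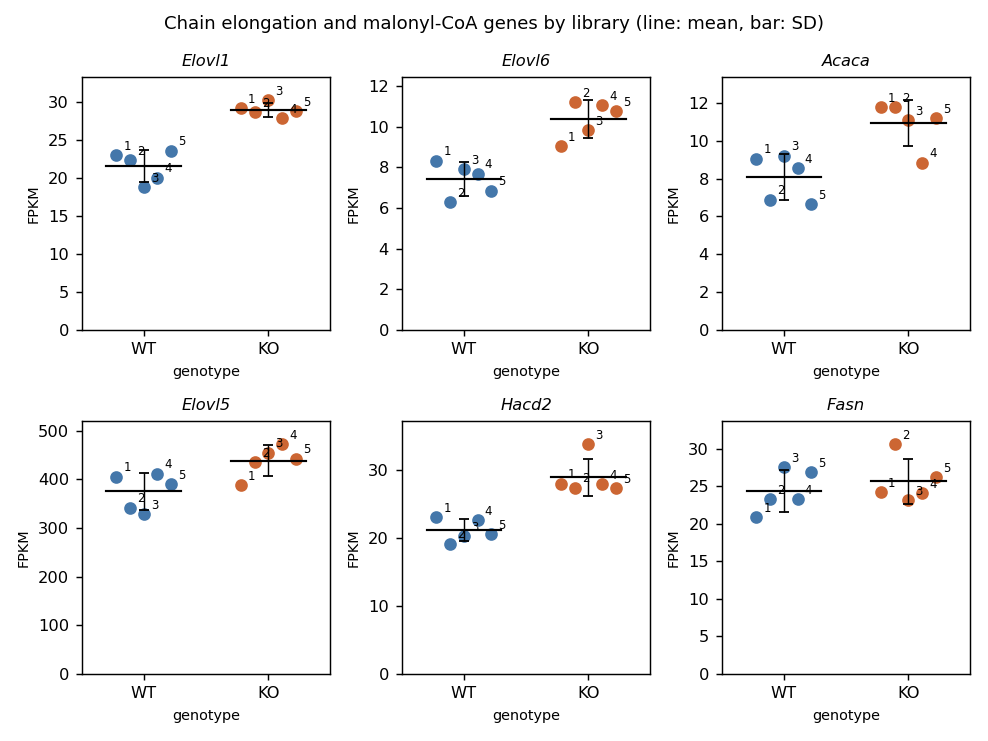
FPKM of Elovl1, Elovl6, Acaca, Elovl5, Hacd2 and Fasn in each library, WT and KO side by side, with replicate numbers, a line at the group mean and a bar of 1 SD. The KO points of Elovl1, Elovl6 and Hacd2 all lie above the WT points, Acaca and Elovl5 overlap through KO 4 and KO 1, and Fasn overlaps widely.

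The other elongation genes did not pass the test. Elovl5 was measured at 405.41, 341.62, 327.98, 411.93 and 390.5 FPKM in WT 1 to WT 5 and at 388.24, 434.9, 454.5, 472.94 and 442.32 FPKM in KO 1 to KO 5. Of its KO libraries, 4 lay above every WT library and KO 1 lay within the WT range. Its log2 difference was 0.23 (SE 0.08, adjusted p = 0.0922). Elovl2, which acts on longer polyunsaturated chains than Elovl5, had a difference of -0.10 (interval -0.38 to 0.19). Elovl3, an elongase of saturated chains, averaged 3.22 FPKM in WT and 3.96 FPKM in KO, with a difference of 0.26 (interval -0.18 to 0.70). Hsd17b12, which carries out the first reduction of the cycle, stood at 0.07 and Tecr, which carries out the second, at -0.07.

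The promoter sequences of 3 elongases are shown because Elovl1 and Elovl6 are the called elongases and Elovl5 the most abundant one. They come from RefSeq, build GRCm38.p6, the assembly of mm10, and hold the bases before the transcription start, trimmed where an annotated exon begins. Capitals mark matches on either strand to 4 motifs: TCACNCCAC for SREBP, CACGTG for the E-box, CCAAT for NF-Y and GGGCGG for Sp1. All windows are on the plus strand.
Elovl1, chr4:118427843-118428092: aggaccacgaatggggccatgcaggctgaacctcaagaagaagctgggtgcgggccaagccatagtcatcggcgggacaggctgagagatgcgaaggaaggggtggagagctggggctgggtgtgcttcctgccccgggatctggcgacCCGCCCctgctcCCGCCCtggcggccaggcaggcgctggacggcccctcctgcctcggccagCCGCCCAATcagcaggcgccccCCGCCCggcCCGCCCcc
Elovl6, chr3:129532136-129532256: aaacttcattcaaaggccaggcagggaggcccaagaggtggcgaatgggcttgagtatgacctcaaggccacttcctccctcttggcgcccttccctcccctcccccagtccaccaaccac
Elovl5, chr9:77917115-77917363: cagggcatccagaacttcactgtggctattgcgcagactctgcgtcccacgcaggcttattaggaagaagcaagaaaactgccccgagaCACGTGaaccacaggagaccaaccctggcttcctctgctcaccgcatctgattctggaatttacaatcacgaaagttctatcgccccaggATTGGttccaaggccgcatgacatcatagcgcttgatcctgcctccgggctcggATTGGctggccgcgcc

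The Elovl1 window shown held 5 Sp1 matches and 1 NF-Y match, and the NF-Y match shares bases with an Sp1 match. The table holds another Elovl1 window, before a start at 118429701, with 2 Sp1 matches and 0 NF-Y matches. The Elovl5 window held 1 E-box match and 2 NF-Y matches. The Elovl6 stretch shown is 121 bases long and ends 129 bases before the start. It held 0 matches, as did the whole Elovl6 window. Shares were counted over whole windows, from 250 bases before the start to 50 bases after it. Over all 32851 windows, 1.24% held the SREBP motif, 7.15% the E-box, 37.4% the NF-Y motif and 35.7% the Sp1 motif. Of the 33 genes, 27 matched the promoter table, with 36 windows. Of these windows, 1 held the SREBP motif (Mlxipl), 4 the E-box, 19 the NF-Y motif and 19 the Sp1 motif. A match is a run of letters and not a shown binding site, and the other windows had no such run.

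In desaturation, 0 of 4 genes were called, and all 4 differences lay below 0, with a median of -0.17 on the log2 scale. Fads1, the enzyme that places the last double bond in arachidonate, was measured at 104.74, 93.14, 89.51, 92.46 and 93.6 FPKM in WT 1 to WT 5 and at 70.33, 80.22, 81.29, 91.97 and 85.16 FPKM in KO 1 to KO 5. KO 4 lay above WT 3, and the other KO libraries lay below every WT library. The log2 difference was -0.21 (SE 0.07, adjusted p = 0.0863). Fads2, the first desaturase of the same route, stood at -0.12 (interval -0.36 to 0.12).

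Scd1, the main stearoyl-CoA desaturase of liver and a target of SREBP-1c, was named after its values were seen, for its spread. It was measured at 218.88, 140.12, 360.3, 38.91 and 76.93 FPKM in WT 1 to WT 5 and at 88.39, 94.48, 50.42, 74.91 and 51.76 FPKM in KO 1 to KO 5. The WT libraries WT 1, WT 2 and WT 3 lay above all KO libraries, WT 5 lay within the KO range, and WT 4 was the lowest of the 10. Its log2 difference was -0.87, with a 95% confidence interval from -2.05 to 0.32 (adjusted p = 0.352). The interval includes 0 and also a large reduction. Scd2 averaged 0.624 FPKM in WT and 0.528 FPKM in KO, and the sources used here do not say how reads were divided between Scd genes of similar sequence.

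Among the 3 regulators 0 were called. Mlxipl was measured at 77.22, 64.37, 57.94, 72.06 and 75.22 FPKM in WT 1 to WT 5 and at 58.92, 59.47, 61.13, 57.98 and 65.56 FPKM in KO 1 to KO 5. Its groups overlapped, with WT 3 the lowest of all. The log2 difference was -0.19 (SE 0.08, adjusted p = 0.164), and without WT 3 it was -0.25 with an adjusted p of 0.0379. Mlxipl was not called with any other library left out (adjusted p up to 0.304).

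Srebf1 was also named after its values were seen. It was measured at 6.49, 13.96, 16.94, 6.05 and 8.16 FPKM in WT 1 to WT 5 and at 6.56, 11.37, 3.28, 4.95 and 4.97 FPKM in KO 1 to KO 5. WT 2, WT 3 and KO 2 stood highest and KO 3 lowest, and the groups overlapped. The log2 difference was -0.68 (interval -1.46 to 0.09, adjusted p = 0.265). FPKM per gene does not separate the SREBP-1c transcript from the other product of Srebf1. Thrsp, which encodes Spot 14, a protein linked to lipogenesis, had its highest value of 16.83 FPKM in WT 3 and ranged from 6.52 to 8.33 FPKM in the other WT libraries and from 8.92 to 11.34 FPKM in KO. Its log2 difference was 0.19 (adjusted p = 0.648), and without WT 3 the gene was called higher in KO (adjusted p = 0.0212). Thrsp was not called with any other library left out (adjusted p up to 0.836).

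The level of Srebf1 was compared with 10 other genes of the set across the 10 libraries, on log2 values, with 100000 permutations for each. No relation passed after Benjamini-Hochberg adjustment over the 10. The closest were Acly, with Pearson r = 0.72 (p = 0.0183, adjusted p = 0.0992) and Spearman rho = 0.70 (permutation p = 0.0316), and Scd1, with r = 0.72 (p = 0.0198, adjusted p = 0.0992) and rho = 0.78 (permutation p = 0.0105). Without WT 2 and WT 3, the libraries farthest from the median of Srebf1, r fell to 0.50 for Acly and 0.41 for Scd1, so both rest in part on those libraries. Elovl6 had r = -0.48 (permutation p = 0.159) and Acaca r = -0.35 (permutation p = 0.322), and these were -0.16 and -0.13 without the same libraries. Values taken as deviations from the genotype means gave r = 0.83 for Acly, 0.71 for Fasn, 0.70 for Thrsp, 0.66 for Acss2 and 0.63 for Scd1. The same measure was 0.11 for Acaca, -0.06 for Elovl6, -0.28 for Gpam, -0.53 for Me1 and -0.69 for Mlxipl. The libraries share their scaling and depth, and the correlations are descriptions.

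In triglyceride assembly 0 of 8 genes were called, and all 8 differences lay above 0, with a median of 0.14 on the log2 scale. Agpat3, which acylates lysophospholipids including lysophosphatidate, was measured at 151.18, 173.59, 154.46, 178.53 and 169.6 FPKM in WT 1 to WT 5 and at 174.43, 182.21, 185.03, 187.1 and 188.33 FPKM in KO 1 to KO 5. KO 1 lay below WT 4, and the other KO libraries lay above every WT library. The log2 difference was 0.15 (SE 0.06, adjusted p = 0.119). Dgat1, one of the enzymes of the final acylation, was measured at 15.73, 18.3, 23.12, 15.45 and 14.24 FPKM in WT 1 to WT 5 and at 22.7, 23.48, 20.88, 21.53 and 17.59 FPKM in KO 1 to KO 5. WT 3 lay among the highest KO libraries, and KO 5 lay below WT 2. The log2 difference was 0.30 (SE 0.12, adjusted p = 0.16), and without WT 3 it was 0.40 with an adjusted p of 0.0283. Dgat1 was not called with any other library left out (adjusted p up to 0.306).

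Lpin2 and Lpin1 encode lipins, the phosphatidate phosphatases that make diacylglycerol. Lpin2 was measured at 69.21, 58.36, 92.43, 118.63 and 87.13 FPKM in WT 1 to WT 5 and at 79.59, 96.47, 123.66, 134.34 and 143.14 FPKM in KO 1 to KO 5. The groups overlapped, and the log2 difference was 0.45 (SE 0.21, adjusted p = 0.22). Lpin1, named after its values were seen, was the most variable of the 33 genes. It was measured at 7.05, 10.85, 23.8, 64.94 and 44.96 FPKM in WT 1 to WT 5 and at 4.4, 19.48, 32.97, 42.21 and 66.7 FPKM in KO 1 to KO 5. The highest value was 15.2 times the lowest, and both genotypes spanned almost that whole range. The order of libraries was alike in both genotypes. WT 1 and KO 1 were the lowest of their groups, and WT 4, WT 5, KO 4 and KO 5 the highest. What lies behind this shared order was not tested. Its log2 difference was 0.12 with an interval from -1.63 to 1.87 (adjusted p = 0.944).

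Dgat2, the other enzyme of the final acylation, ranged from 158.07 to 181.52 FPKM in WT and from 148.43 to 194.08 FPKM in KO, with a log2 difference of 0.07 and an interval from -0.10 to 0.23. Gpam, the mitochondrial glycerol-3-phosphate acyltransferase, stood at 0.06 (interval -0.20 to 0.32) and Agpat2, an acyltransferase of lysophosphatidate, at 0.05 (interval -0.20 to 0.29). Mogat1, a monoacylglycerol acyltransferase, was low, from 0.9 to 4.37 FPKM, and stood at 0.30 (interval -0.45 to 1.06).

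**Figure D4:**
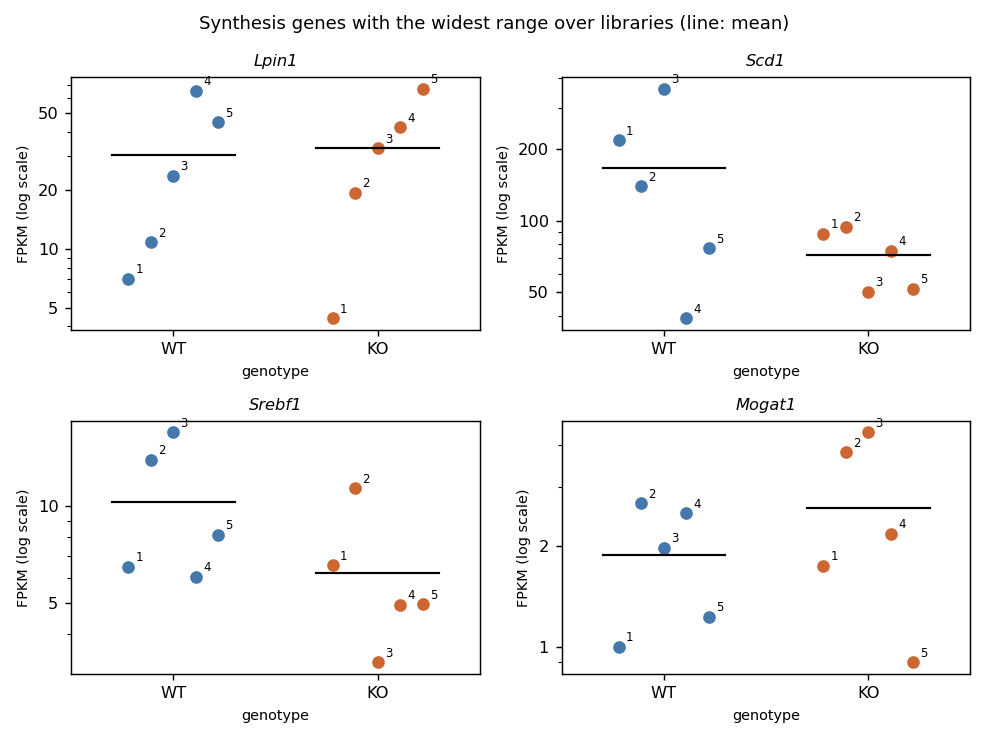
FPKM of Lpin1, Scd1, Srebf1 and Mogat1, the 4 genes of the 33 with the widest range, in each library on log axes, with replicate numbers and a line at the group mean. Lpin1 spans a 15.2-fold range with the genotypes mixed, and Scd1 is spread more in WT than in KO.

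Acyl-CoA synthetases activate fatty acids for any of these routes, and 0 of the 3 were called. Acsl4, which prefers arachidonate, was measured at 8.96, 7.19, 7.74, 10.54 and 9.12 FPKM in WT 1 to WT 5 and at 9.62, 9.33, 12.88, 11.89 and 12.75 FPKM in KO 1 to KO 5. KO 1 and KO 2 lay within the WT range and the others above it, with a log2 difference of 0.36 (SE 0.12, adjusted p = 0.0887). Acsl3, a synthetase of the endoplasmic reticulum and lipid droplets, was measured at 5.58, 7.31, 6.35, 4.64 and 5.18 FPKM in WT 1 to WT 5 and at 4.54, 7.09, 2.64, 3.77 and 2.63 FPKM in KO 1 to KO 5. KO 2 lay near the top of the WT range and the other KO libraries below it. The log2 difference was -0.51 (SE 0.23, adjusted p = 0.191), and without KO 2 it was -0.71 with an adjusted p of 0.0382. Acsl3 was not called with any other library left out (adjusted p up to 0.341). Acsl5, an abundant synthetase of liver, was measured at 98.48, 84.82, 84.01, 114.84 and 116.93 FPKM in WT 1 to WT 5 and at 110.98, 121.54, 107.32, 113.87 and 111.22 FPKM in KO 1 to KO 5. Its KO libraries fell within the spread of the WT libraries apart from KO 2, and the log2 difference was 0.19 (SE 0.09, adjusted p = 0.241).

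The balance between genes that act next to each other was compared through 10 ratios of FPKM within each library. None passed after adjustment over the 10, where the two-sided exact permutation test can give no p below 0.00794. The ratio of Elovl2 to Elovl5 was 0.864, 0.844, 0.712, 0.875 and 0.992 in WT 1 to WT 5 and 0.665, 0.626, 0.688, 0.700 and 0.727 in KO 1 to KO 5. WT 3 was the one WT library within the KO range. The log2 difference of this ratio was -0.33 (exact permutation p = 0.0159, adjusted p = 0.106), and without WT 3 it was -0.39 with an adjusted p of 0.0397. Over the fits with a library left out, its adjusted p reached 0.159. The ratio of Elovl6 to Fasn was 0.399, 0.270, 0.287, 0.330 and 0.255 in WT 1 to WT 5 and 0.374, 0.366, 0.423, 0.460 and 0.411 in KO 1 to KO 5. WT 1 was the one WT library within the KO range, and the log2 difference was 0.42 (exact permutation p = 0.0238, adjusted p = 0.106).

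The ratio of Elovl6 to Elovl5 differed by 0.26 on the log2 scale (exact permutation p = 0.0317, adjusted p = 0.106), and without WT 3 by 0.34 with an adjusted p of 0.0397. Over the fits with a library left out, its adjusted p reached 0.212. The ratio of Elovl6 to Scd1 differed by 1.36 (exact permutation p = 0.0635, adjusted p = 0.159), with a wide WT range from 0.022 to 0.197 and a KO range from 0.102 to 0.208. For Acaca to Acacb the difference was 0.55 (exact permutation p = 0.103, adjusted p = 0.206). The remaining 5 ratios, Fads1 to Fads2, Scd1 to Scd2, Dgat2 to Dgat1, Lpin1 to Lpin2 and Srebf1 to Mlxipl, had exact permutation p values from 0.143 to 0.651.

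Enzymes of the same routes outside the 33 were taken from a separate list of 28, of which 20 were tested, with 2 higher and 2 lower in KO. That is 20% of those tested, beside 8.54% of all tested genes. Hacd2, a dehydratase of the elongation cycle, was higher, at 21.1 ± 1.65 FPKM in WT and 28.9 ± 2.78 FPKM in KO (SD, n = 5 each), without overlap and with a log2 difference of 0.44 (SE 0.07, adjusted p = 0.00568). Lpin3, the third lipin, was higher at a low level, 1.31 FPKM in WT and 1.85 FPKM in KO (log2 difference 0.37, adjusted p = 0.0446), and this call was lost whichever library was left out (adjusted p up to 0.0922). The lower genes were Hsd17b8 and Mecr. Hsd17b8, a subunit of the ketoacyl reductase of fatty acid synthesis inside the mitochondrion, a separate route that supplies lipoic acid, averaged 61.0 ± 1.75 FPKM in WT and 48.3 ± 2.68 FPKM in KO (SD, n = 5 each), with a log2 difference of -0.34 (SE 0.05, adjusted p = 0.00338). Mecr, the enoyl reductase of that route, averaged 19.5 FPKM in WT and 15.3 FPKM in KO, with the same log2 difference of -0.34 (adjusted p = 0.0148). Both groups were separate for both genes, and both stayed called whichever library was left out. The other listed genes of that route were not called. Cbr4, the other reductase subunit, stood at 0.21 (adjusted p = 0.117), Mcat, its malonyl transferase, at -0.05 (adjusted p = 0.761) and Oxsm, its ketoacyl synthase, at -0.06 (adjusted p = 0.658). Outside it, Mlycd, the malonyl-CoA decarboxylase, stood at -0.17 (adjusted p = 0.141).

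Among 18 genes that supply carbon and NADPH, all tested, 1 was lower in KO, and 4.56% of all tested genes were lower. Idh1, the cytosolic isocitrate dehydrogenase that forms NADPH, fell from 91.2 to 73.8 FPKM (log2 difference -0.30, adjusted p = 0.0221), and without KO 5 its adjusted p was 0.0578. Taldo1, of the pentose phosphate route, stood at -0.18 and Mdh1, the cytosolic malate dehydrogenase, at 0.20, neither called. Without WT 2, Mdh1 was called higher, at 0.27 (adjusted p = 0.0271), and with any other library left out it was not called (adjusted p up to 0.262).

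Of 31 regulators of lipogenesis, all tested, 1 was higher and 4 lower, which is 16.1% called. Of all tested genes, 8.54% were called, 3.98% higher and 4.56% lower. The list was chosen with earlier results known, so its share was not tested. The 4 lower genes were Insig1, Srebf2, Scap and Mbtps1. As background, SCAP carries SREBP precursors to the Golgi for cleavage by a pair of proteases, and INSIG proteins hold them back. Insig1, itself a target of SREBP, fell from 15.5 ± 4.16 FPKM in WT to 6.74 ± 0.837 FPKM in KO (SD, n = 5 each; log2 difference -1.11, SE 0.16, adjusted p = 0.00298). Srebf2, which encodes the factor for cholesterol synthesis genes, fell from 8.56 to 5.78 FPKM (log2 difference -0.52, adjusted p = 0.0101). Scap fell from 38.0 to 30.0 FPKM (log2 difference -0.34, adjusted p = 0.00652). These 3 genes stayed called whichever library was left out. Mbtps1, the first protease of the cleavage, fell from 12.9 to 10.3 FPKM (log2 difference -0.30, adjusted p = 0.0391), and this call was lost with any one of 8 libraries left out (adjusted p up to 0.0893) and kept without WT 3 or KO 5. Mbtps2, the other protease, stood at 0.14 (adjusted p = 0.457) and was not called. Insig2 rose from 382.5 to 600.9 FPKM (log2 difference 0.64, adjusted p = 0.0286), a call that reached an adjusted p of 0.062 and was lost when WT 1, WT 2, WT 3, KO 1, KO 2 or KO 5 was left out. Usf2, at -0.24 (adjusted p = 0.0535), and Nfyb, at -0.39 (adjusted p = 0.0863), encode factors that bind lipogenic promoters and did not pass. Groups did not overlap for 5 of the 31 regulators, all lower in KO: Insig1, Srebf2, Scap, Mbtps1 and Usf2. Of all tested genes, 8.87% had groups without overlap, 4.78% with KO lower.

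**Figure D5:**
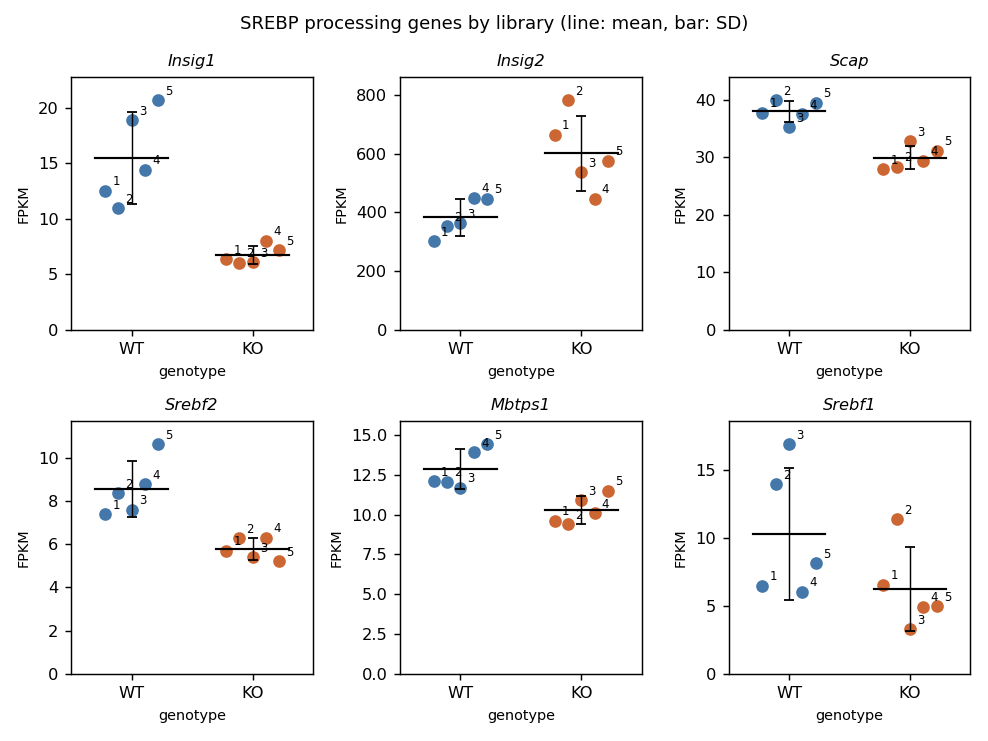
FPKM of Insig1, Insig2, Scap, Srebf2, Mbtps1 and Srebf1 in each library, WT and KO side by side, with replicate numbers, a line at the group mean and a bar of 1 SD. The KO points of Insig1, Scap, Srebf2 and Mbtps1 all lie below the WT points, whereas Insig2 and Srebf1 overlap.

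Genes that follow feeding state and time of day were read because either can move lipogenic genes and neither was given. Of 12 fasting and feeding genes, Igfbp1, which insulin represses, rose from 360.5 to 785.4 FPKM (log2 difference 1.19, adjusted p = 0.0199), and Acadm, of mitochondrial fatty acid oxidation, fell from 713.9 to 602.3 FPKM (log2 difference -0.24, adjusted p = 0.0276). The Acadm call was lost with any one of WT 1, WT 4, WT 5, KO 1, KO 2, KO 4 or KO 5 left out, with adjusted p up to 0.0684. Pck1, of gluconeogenesis, at 0.25, and Tat, of tyrosine breakdown, at 0.50, did not pass. Of 13 clock genes tested, Arntl, which encodes BMAL1, was lower (log2 difference -0.47, adjusted p = 0.0174), as was Nfil3 (log2 difference -0.67, adjusted p = 0.0284), a call lost when WT 1, WT 3, WT 5, KO 3, KO 4 or KO 5 was left out, with 0.065 as the largest adjusted p. Dbp, at 0.62 (adjusted p = 0.0744), and Nr1d1, at 0.76 (adjusted p = 0.176), did not pass. Called were 16.7% of the fasting and feeding list and 15.4% of the tested clock genes, beside 8.54% of all tested genes. The part of feeding state or collection time in the differences above was not tested.

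The bulk libraries hold every cell of the liver, and fewer cells of a type cannot be told apart from less RNA per cell. The hepatocyte list of 7 markers had 1 called, Cps1, higher in KO. Its summed level ran from 55698 to 61166 FPKM in WT and from 60903 to 66489 FPKM in KO, most of it Alb. Differences lay above 0 for 5 of the 7 and below 0 for 2, Serpina1c (-0.22, limma adjusted p = 0.11) and Hnf4a (-0.30, limma adjusted p = 0.116). Of 10 Kupffer cell markers, 4 were lower in KO (Clec4f, Vsig4, Csf1r and C1qa) and 0 higher. That is 40% called, beside 8.54% of all tested genes. The Csf1r call was kept in 4 of the 10 fits with a library left out (limma adjusted p up to 0.0688). The Clec4f, Vsig4 and C1qa calls held in all 10. The 10 markers summed to between 284 and 329 FPKM in WT and between 199 and 286 FPKM in KO. Differences lay below 0 for 9 of them. Marco went the other way, from 6.71 FPKM in WT to 12.4 FPKM in KO (log2 difference 0.75, limma adjusted p = 0.191), and was not called. The lists of sinusoidal endothelial cells and lymphocytes had 0 of 8 and 0 of 6 tested markers called. Differences lay below 0 for 6 of these 8 endothelial markers and 5 of these 6 lymphocyte markers. Reln, 1 of 8 stellate cell markers, and Sox9, 1 of 4 tested cholangiocyte markers, were lower. With a library left out, the Reln call was kept in 1 of 10 fits (limma adjusted p up to 0.105). The Sox9 call was kept in 2 (limma adjusted p up to 0.0777), at low means of 0.964 FPKM in WT and 0.504 FPKM in KO. Differences lay below 0 for 7 of the 8 stellate cell markers and 2 of the 4 tested cholangiocyte markers. Of the adipocyte list of 8, 0 of 4 tested markers were called, Lep was listed at 0 in all libraries and Adipoq, Plin1 and Retn stayed under 0.5 FPKM. Of the others on that list, Fabp4 averaged 5.81 FPKM in WT and 8.80 FPKM in KO (log2 difference 0.54, adjusted p = 0.0752). Fabp4 was called when KO 1 was left out and with no other library left out (adjusted p up to 0.155). Car3 averaged 148 and 102 FPKM, Adrb3 1.41 and 1.63 FPKM and Cfd 0.59 and 0.848 FPKM. The summed adipocyte list ran from 87.5 to 257 FPKM in WT and from 54.9 to 189 FPKM in KO. Most of it was Car3, so the sum follows that gene and does not give a level of adipocyte RNA. Car3 had a lower mean in KO, whereas Fabp4, Adrb3 and Cfd had higher ones. The part of cell composition in the differences of the 33 genes was not tested.

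Overlapping genes could share reads with the called genes, because the sources used here do not give the strand setting of the counting. Acaca overlaps Gm11437 on the opposite strand over 19126 bases, and that gene stood at 2.49 FPKM in WT and 2.25 FPKM in KO. Elovl1 overlaps Cdc20 by 53 bases, and Cdc20 stood at 0.402 and 0.316 FPKM. Elovl6 overlaps Gm35986 by 34 bases, at 0.826 and 0.716 FPKM. The part of shared reads in the 3 calls was not tested.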

How the data were processed

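Poly-A RNA of liver was sequenced in paired ends, 10 libraries in all, per the labels' protocols. The deposited values are FPKM per gene, computed by the authors. The submitters' processing notes name STAR, RSEM, R 4.0.2, DESeq, DESeq2 and the mm10 build, with no role for each. The sources used here give neither strand setting nor annotation release. Because FPKM is scaled to the library total, abundant transcripts weigh on all others, and FPKM sums per library ran from 693803 to 742461.

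Values were used as log2(FPKM + 0.5). The 12247 genes whose mean reached 0.5 FPKM were tested with limma 3.58.1 (R 4.3.3). The two-sided fit had a genotype term alone and used eBayes with a variance trend and robust moderation. Calls required a Benjamini-Hochberg adjusted p below 0.05 over all of them. Count models were not applied to FPKM. Ratios between genes were compared with exact permutation tests, and correlations with 100000 permutations. Relative depth was estimated from 333 low genes, of whose values 93.3% lay within 0.15 of a whole step. No confidence interval from counts was possible.

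The 33 genes and the other lists were chosen with earlier results of these data known. Values in every library are given for each called gene, each further gene of the 33 with an unadjusted p under 0.05, and at least the 12 genes with the smallest p. In the other lists, each called gene and the 2 next by p are named. A gene that this rule gives is not reported here. Genes named otherwise are said to be, or are given by mean, range or interval. Gene positions came from a GENCODE annotation of GRCm38, and Hsd17b8 was matched through an older symbol.

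Replicate numbers are shared between genotypes. Same-numbered libraries correlated between -0.21 and 0.21, and 4 of 10 libraries correlated best with their own number. These mixed values do not settle whether the libraries belong in pairs, and the fit with a genotype term alone did not pair them. Alternatives were other pseudocounts and filters, 2 scalings, a non-robust fit, library weights, a replicate block and each library left out in turn. The fit was checked on simulated WT and KO libraries with 200 changed genes, where a log2 change of 0.3 was recovered for 18.5% (12142 genes), 64% at 0.5 (12147 genes), 86.5% at 1 (12140 genes) and 93% at 2 (12142 genes). Calls on unchanged genes were 0 of 37 calls at 0.3, 8 of 136 at 0.5, 11 of 184 at 1 and 14 of 200 at 2. With no gene changed it made 0 calls among 12157 genes.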

Additional observations from a re-analysis of the deposited data

Results flagged for a closer look

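In 8 of 138 groups of 5 libraries searched, 1 library stood apart from the other 4 by Dixon's criterion, and chance alone gives about 6.9. Among the fatty acid and triglyceride genes, Acaca in KO 4 was 8.84 FPKM, with the other KO libraries between 11.07 and 11.78. Fads1 in WT 1 was 104.74 FPKM, with the other WT libraries between 89.51 and 93.6. Thrsp in WT 3 was 16.83 FPKM, with the others between 6.52 and 8.33. Dgat2 in KO 3 was 148.43 FPKM, with the others between 182.47 and 194.08.

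Among the other genes, Lpin3 in KO 5 was 2.33 FPKM (others 1.68 to 1.83) and Hacd2 in KO 3 was 33.86 FPKM (others 27.35 to 28). Mdh1 in WT 2 was 285.29 FPKM (others 216.9 to 234.8), and Dbp in KO 4 was 4.18 FPKM (others 2.08 to 2.33).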

How the results depend on the processing

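Elovl1 stayed called under every alternative run. With the replicate number as a block, the adjusted p was 0.0238 for Elovl1, 0.0516 for Elovl6 and 0.0797 for Acaca, and Lpin2 passed at 0.0451. Same-numbered libraries correlated between -0.21 and 0.21, 2 of 5 pairs over 0.1, and 4 of 10 libraries correlated best with their own number. The block changed the count of all genes from 488 higher and 558 lower to 230 and 321, and no filter on low values changed it to 294 and 370. The other synthesis enzymes then had 1 higher under no filter, a mean of at least 5 FPKM or the block, and 1 lower under the block. Carbon and NADPH supply had 0 lower under the block. Regulators had 0 higher under no filter or the block. Fasting and feeding genes had 0 lower under quantile normalization or the block. Clock genes had 1 higher with library weights, 1 lower under no filter and 0 lower under the block. The cause was not tested.

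Leaving out each library in turn gave 2 to 5 of the 33 genes higher and 0 to 1 lower, and 258 to 454 higher and 316 to 541 lower of all genes. Without WT 3, 5 were higher (Dgat1 and Thrsp added) and 1 lower (Mlxipl). Without KO 2, 1 was lower (Acsl3). The ranges were 1 to 1 higher for other synthesis enzymes, 1 to 2 higher and 0 to 2 lower for carbon and NADPH supply, 0 to 1 higher for regulators, 0 to 1 lower for fasting and feeding, and 0 to 1 higher and 1 to 2 lower for clock genes. The log2 ratio difference ranged from 0.22 to 0.34 for Elovl6 to Elovl5, from -0.39 to -0.27 for Elovl2 to Elovl5 and from -0.68 to 0.15 for Lpin1 to Lpin2, the last turning to 0.15 without KO 1. Lpin1 ranged from -0.28 to 0.71, and turned below 0 with WT 1 (-0.28), WT 2 (-0.13), KO 4 (-0.08) or KO 5 (-0.24) left out. A sign-flip test on the 5 numbered pairs is too small to pass for any ratio.

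Total reads were not given, so counting error per gene is unknown. Differences of 0.3 on the log2 scale were mostly missed in simulated data (18.5% recovered). Those data held 200 changed genes and gave 37 calls at that size, against 1046 calls in the real libraries. The adjusted threshold depends on that number, so the recovered share need not hold here.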
